A study of Rattus norvegicus with 2 samples.

Results

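The C-type lectin receptors named Clec and Klr were followed in the lumbar spinal cord (SC) of rats with chronic constriction injury (CCI) of the sciatic nerve. Members were taken by symbol alone, as every measured gene whose name begins with Clec or Klr followed by a digit or a letter from a to k. The rule on names uses no expression value, but the family itself was picked with earlier results of these data known. This gave 51 of the 18166 genes measured, of which 33 were Clec genes and 18 were Klr genes. The comparison addressed which of these receptors differ in the SC once the nerve is injured, Clec7a being the one that the study pursued.

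In the CCI group, adult male Sprague-Dawley rats had loose ties placed on the left common sciatic nerve. Sham rats had the exposure surgery with no ties. SC segments L4-L6 were taken on day 10 after surgery, and the labels do not say whether both sides of the cord were used. RNA of 3 rats was mixed into 1 sample per group, so the data were 1 CCI array and 1 Sham array. No difference below therefore has an error or a test, and precision is limited by the number of arrays.

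Values are log2 expression values from Affymetrix Rat Gene 2.0 ST arrays after robust multi-array average (RMA), and a difference is the CCI value minus the Sham value. A gene was counted when this difference passed 1.5-fold, the fold threshold of the study's methods. The arrays gave no detection call. Background was therefore gauged from 1342 genes of olfactory and vomeronasal receptors, whose known role is in the nose. The 95th percentile of their values, 4.36 in CCI and 4.44 in Sham, is called the background level. For a gene above it on 1 array only, the text gives a bound, the smallest fold that sets its bright value against the level of the dim array (written as at least N-fold). For a gene above it on neither array the values stand without a fold. Of the 51 members, 12 lay above background on at least 1 array and 39 lay at or below it on both. The tissue carried its defining markers, with all 10 measured neuronal, astrocytic and myelin markers above background on both arrays. Snap25, a synaptic protein gene, was at 12.98 in CCI and 13.09 in Sham, and the myelin gene Mbp was at 12.52 in CCI and 12.34 in Sham.

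C-type lectin receptors share an extracellular fold that in many members binds sugars and in others binds protein ligands. Receptors of the Dectin-1 and Dectin-2 groups sit on myeloid cells such as macrophages, dendritic cells and microglia, where they sense fungal and bacterial glycans or remnants of dead cells. Activating members signal through the kinase Syk, either by a tyrosine motif in their own tail or through the adaptors encoded by Fcer1g and Tyrobp, and inhibitory members recruit phosphatases. Klr receptors belong to natural killer (NK) cells and some T cells, which read class I molecules or Clr proteins on other cells with them. In the central nervous system Clec7a is known as a gene of activated microglia.

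Position was one feature that the members shared and that the rule did not use. In the RefSeq annotation 44 of the 51 lie on chromosome 4, 31 of them within the natural killer gene complex and 8 in a smaller block that runs from Clec4a1 to Clec4e. The stretch upstream of the annotated start was available for 42 members. It is shown for the 3 members with the largest differences, Clec7a, Clec4a3 and Clec4a1. Clec4a2, the neighbour of Clec4a3 that stayed at background, is shown as an example. It does not stand for the other members at background. Each run is the 250 bases before the start in the RefSeq table of build GRCr8, 5′ to 3′ on the strand of the gene, with the letters of 2 motifs in capitals.
Clec7a (chr4:164599828-164600077, minus strand): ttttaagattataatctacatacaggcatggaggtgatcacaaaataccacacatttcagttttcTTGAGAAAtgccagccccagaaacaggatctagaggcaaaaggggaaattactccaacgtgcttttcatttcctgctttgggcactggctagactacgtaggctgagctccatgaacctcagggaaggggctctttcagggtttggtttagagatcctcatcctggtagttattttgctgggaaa
Clec4a3 (chr4:157886508-157886757, plus strand): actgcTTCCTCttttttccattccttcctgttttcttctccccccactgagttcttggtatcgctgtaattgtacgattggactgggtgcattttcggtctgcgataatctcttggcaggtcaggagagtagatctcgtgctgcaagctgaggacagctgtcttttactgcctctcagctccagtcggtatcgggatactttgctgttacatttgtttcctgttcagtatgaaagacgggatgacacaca
Clec4a1 (chr4:157845561-157845810, plus strand): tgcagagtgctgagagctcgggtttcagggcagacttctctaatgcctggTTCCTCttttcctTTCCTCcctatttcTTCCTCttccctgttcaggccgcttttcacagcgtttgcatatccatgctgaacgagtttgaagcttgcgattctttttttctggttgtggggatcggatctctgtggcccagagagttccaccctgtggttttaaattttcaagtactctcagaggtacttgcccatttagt
Clec4a2 (chr4:157934346-157934595, plus strand): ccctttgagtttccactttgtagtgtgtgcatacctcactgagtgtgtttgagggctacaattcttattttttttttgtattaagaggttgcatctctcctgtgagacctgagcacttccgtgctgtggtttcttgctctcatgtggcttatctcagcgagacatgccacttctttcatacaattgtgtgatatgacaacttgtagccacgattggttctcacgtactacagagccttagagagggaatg

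The capitals mark TTNNGNAA, a short form of the motif of C/EBP transcription factors, and GAGGAA, the core motif of the myeloid factor PU.1, each on either strand. In the Clec7a stretch the C/EBP letters were found once, beginning 185 bases before the start, and the PU.1 letters were not found. The study predicted C/EBPβ elements over a longer promoter region, and by its numbering the sites it mutated lie further upstream than this stretch. Clec4a1 had the PU.1 letters at 3 places, beginning 200, 187 and 173 bases before the start, and Clec4a3 had them once, beginning 245 bases before it. In neither Clec4a gene were the C/EBP letters found, and the stretch of Clec4a2 held neither motif. Other members of the same block, also below background on both arrays, did hold such letters. Clec4b2 had the C/EBP letters at 4 places and the PU.1 letters at 1, Clec4d at 3 and 2, and Clec4e at 1 and 3. Clec4a had the PU.1 letters at 1 place. The C/EBP letters were present in 26 of the 42 member stretches (61.9%), against 37.2% of all 33469 stretches of the same length, and the PU.1 letters in 14 (33.3%), against 23.3%. Member stretches were poorer in G and C, with a median of 41.2% against 51.2% over all, and the part of base composition in these shares was not tested. The AP-1 letters TGANTCA were in 2 member stretches (4.76%) and 6.34% of all, and the letters of an NF-kB motif (GGG, any 2 letters, then TTNCC) in 0 of 42 members and 4.36% of all. The C/EBP letters were found in 2 of the 5 members past 1.5-fold, Clec7a and Clec2dl1, the latter below background on both arrays. The median difference was -0.01 over the 26 members that held the letters and 0.12 over the 16 that did not. Of the 51 members, 39 lay at or below background on both arrays. A link between the letters and the differences was not tested. Aligned end to end, the stretches of Clec4a1 and Clec4a3 were 50.2% identical, close to the median of 49.3% over all 861 pairs of members. Cebpb itself, which encodes C/EBPβ, was at 4.86 in CCI and 4.84 in Sham. These are transcript values of pooled RNA. The study's evidence on C/EBPβ came from its protein, promoter binding, promoter reporter assays, knockdown and the adding back of Clec7a after knockdown. It also drew on a transcript correlation in separate RNA-seq data. These arrays measure none of this.

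Of the 51 members, 4 were higher in CCI past 1.5-fold, against 1.64% of all genes, and 1 was lower, against 1.14% of all genes. Past 2-fold, 2 members were higher, against 0.242% of all genes, and 0 were lower, against 0.0716%. The 5 members past 1.5-fold were Clec genes. Clec7a, Clec4a3 and Clec4a1 had CCI values above background, whereas Clec2d and Clec2dl1 lay below background on both arrays. The other 46 members differed by less than 1.5-fold. The median difference was 0.02 over all members, 0.05 over the Clec genes and -0.05 over the Klr genes, against -0.01 over all genes, and 26 members were higher and 25 lower. Of the 39 members below background, 2 (5.13%) passed the threshold. The share was 2.71% over all genes below background and 4.20% over the olfactory and vomeronasal receptor genes below background. A count of this size at such levels is no result about the members.

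**Figure D1:**
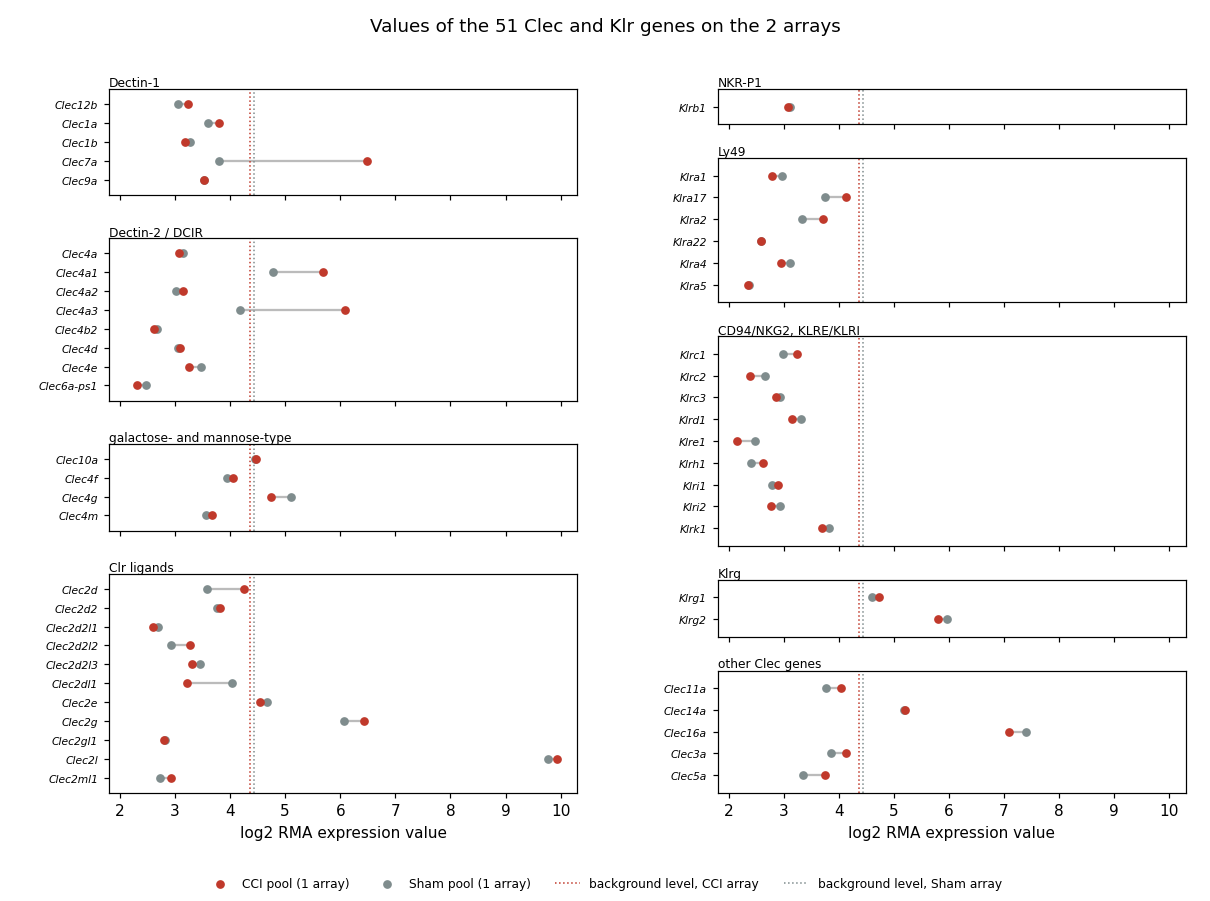
Log2 RMA values of the 51 members, grouped by role, with 1 point for the CCI pool and 1 for the Sham pool and dotted lines at the background level of each array. Clec7a, Clec4a3 and Clec4a1 show long distances between the points, and 39 members lie at or below both lines.

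**Figure D2:**
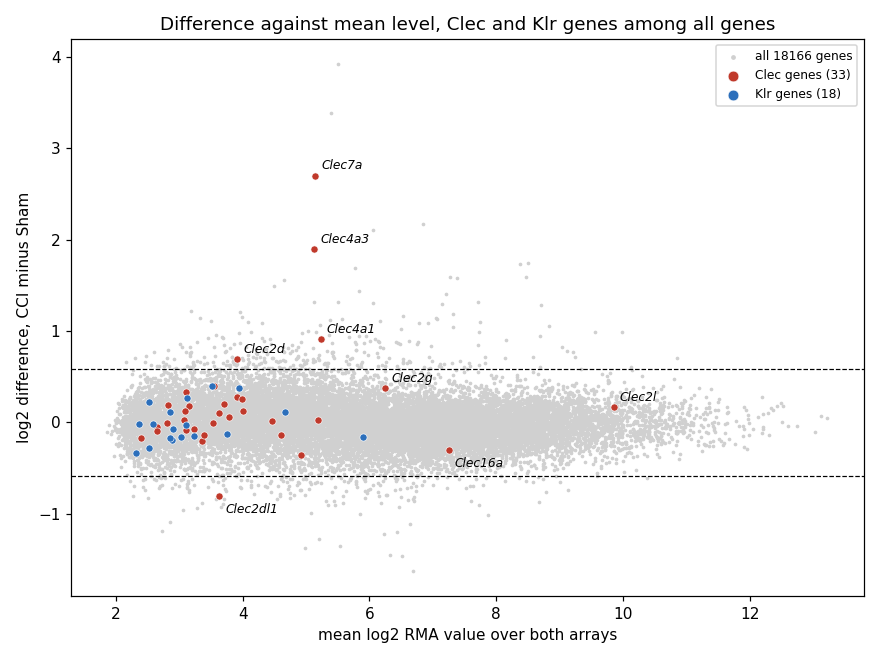
Difference in log2 value (CCI minus Sham) against the mean log2 value of both arrays for all 18166 genes, with the 33 Clec and 18 Klr genes coloured and dashed lines at 1.5-fold. Clec7a is plotted at 2.70 and Clec4a3 at 1.89, both with Sham values below background.

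Clec7a, which encodes the β-glucan receptor Dectin-1, was at 6.49 in the CCI pool and 3.79 in the Sham pool. The Sham value lay below background and the CCI value well above it, so that Clec7a was at least 4.16-fold higher in CCI. The other 4 measured genes of its group, which lie beside it in the same complex, were at or below background on both arrays. Clec1a, a receptor for fungal melanin, was at 3.80 in CCI and 3.60 in Sham. Clec9a, which detects exposed actin of dead cells in dendritic cells, was at 3.52 in CCI and 3.53 in Sham. Clec1b, the platelet receptor for podoplanin, was at 3.19 in CCI and 3.26 in Sham, and the inhibitory receptor Clec12b was at 3.23 in CCI and 3.06 in Sham. Within this group 1 gene of 5, Clec7a, was higher past 1.5-fold, against 1.64% of all genes, and none was lower, against 1.14%.

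Clec4a3 and Clec4a1, of the dendritic cell immunoreceptor (DCIR) subfamily, followed. Clec4a3 was at 6.08 in CCI and 4.19 in Sham, at least 3.12-fold higher in CCI, with its Sham value below background. Clec4a1 was at 5.69 in CCI and 4.78 in Sham, both above background, a 1.88-fold difference that 3 of the 500 genes nearest in mean level reached. It was the single member past the threshold with a measured value on each array. The remaining 6 members of this group stayed below background. Clec4a, the first DCIR gene, was at 3.07 in CCI and 3.15 in Sham, and Clec4a2 was at 3.15 in CCI and 3.03 in Sham. The genes for the glycolipid receptor Mincle and its partner did not follow Clec7a. Clec4e (Mincle) was at 3.26 in CCI and 3.47 in Sham, and Clec4d was at 3.09 in CCI and 3.06 in Sham. Clec4b2 was at 2.62 in CCI and 2.67 in Sham, and the pseudogene Clec6a-ps1 at 2.31 in CCI and 2.48 in Sham. The Clec4a genes are close relatives, and whether their probe sets share signal was not tested.

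Along the chromosome, Clec7a stood between neighbours that did not pass 1.5-fold. Clec4a1 and Clec4a3, both higher in CCI, lie next to each other. Clec2d and Clec2dl1 are also neighbours, but they differed in opposite directions and lay below background on both arrays. In the block from Clec4a1 to Clec4e, Clec4a1 and Clec4a3 are the first pair of 8 neighbours, and the other 6 differed by -0.21 to 0.13. The measured genes before this block were Necap1 at -0.15, Rpl31-ps10 at 0.26 and C3ar1, a complement receptor gene, at 0.32. In the natural killer gene complex, Clec7a lies between Clec1a, with a difference of 0.20, and Olr1, the gene for the lectin-like receptor of oxidised lipoprotein, at 4.12 in CCI and 3.85 in Sham. Over the 31 members of the complex the median difference was -0.01. The 16 other measured genes in it had a median of -0.22. Past 1.5-fold, 1 was higher, against 1.64% of all genes, and 3 were lower, against 1.14%. Those 4 were Ly49 genes outside the naming rule, Ly49s7 at 3.16 in CCI and 2.46 in Sham, Ly49i3 at 2.70 in CCI and 3.34 in Sham, Ly49si1 at 2.38 in CCI and 2.98 in Sham, and Ly49i7 at 3.36 in CCI and 3.96 in Sham. All 4 lay below background on both arrays.

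**Figure D3:**
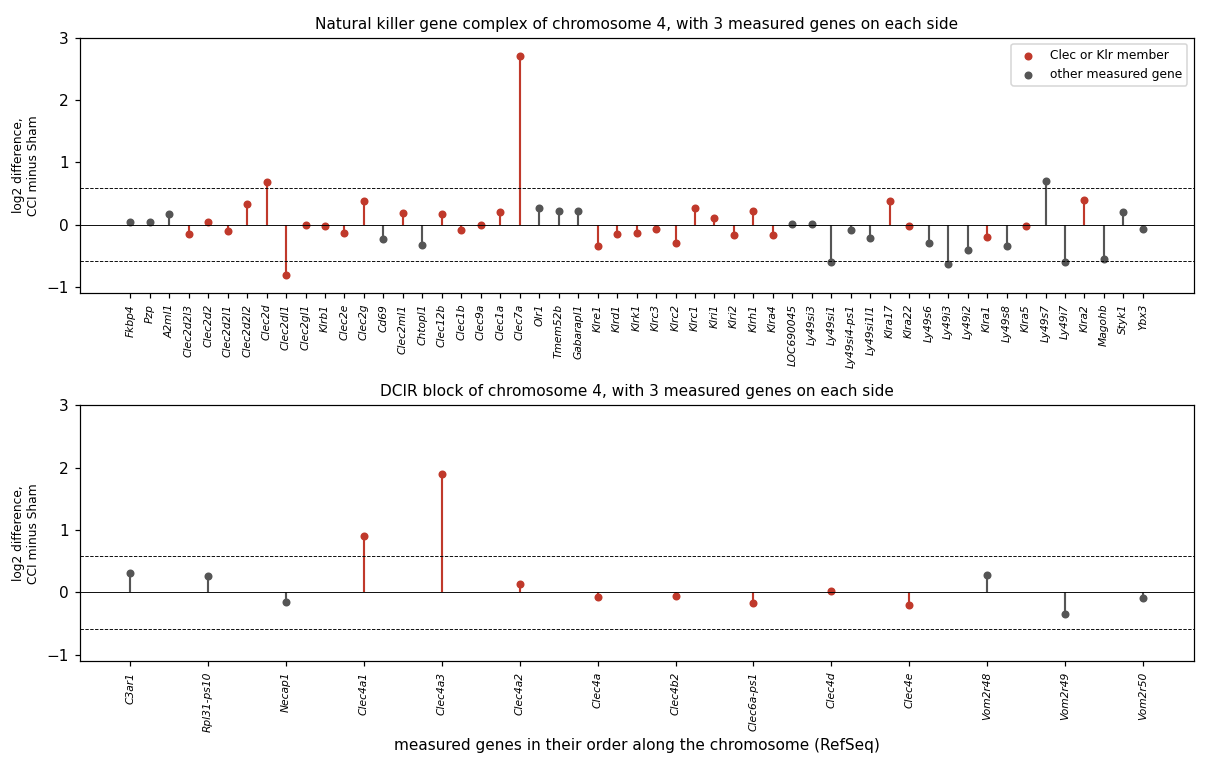
Difference in log2 value (CCI minus Sham) of the measured genes of 2 blocks of chromosome 4, in their order along the chromosome, with 3 measured genes on each side and dashed lines at 1.5-fold. Clec7a stands alone at 2.70 among its neighbours, and Clec4a1 (0.91) and Clec4a3 (1.89) lie next to each other at 1 end of their block.

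The Clec2 genes, which encode the Clr proteins that NKR-P1 receptors of NK cells recognise, differed in both directions. Clec2g, also called Clr-b, was at 6.44 in CCI and 6.07 in Sham, 1.30-fold higher in CCI and below the threshold, and 20 of the 500 nearest genes were as far above Sham. Clec2d was at 4.26 in CCI and 3.57 in Sham, and Clec2dl1, its neighbour in the complex, was at 3.22 in CCI and 4.04 in Sham. Both passed 1.5-fold as measured, in opposite directions, but all 4 values were below background and no fold is given. The stretches upstream of Clec2d and Clec2dl1 were 66.2% identical, and the probe sets of such close copies may not separate them. Clec2e was at 4.54 in CCI and 4.68 in Sham. Clec2l, which lies outside the complex and encodes a lectin-like protein of brain, was at 9.94 in CCI and 9.77 in Sham, a 1.12-fold difference. The 6 remaining Clec2 genes, Clec2d2, Clec2d2l1, Clec2d2l2, Clec2d2l3, Clec2gl1 and Clec2ml1, were below background with differences of -0.15 to 0.33.

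Of the 18 Klr genes, 16 were at or below background on both arrays. Klrb1, an NKR-P1 receptor gene, was at 3.08 in CCI and 3.11 in Sham, and the 2 probe sets that name Klrb1a and Klrb1b together were left out. The 6 Ly49 receptor genes ran from 2.35 to 4.13 in CCI and from 2.37 to 3.76 in Sham. Among them Klra2 was at 3.72 in CCI and 3.32 in Sham and Klra17 at 4.13 in CCI and 3.76 in Sham, whereas Klra1, Klra4, Klra5 and Klra22 differed by -0.19 to -0.01. Of the CD94 and NKG2 genes, which encode receptors for nonclassical class I molecules, Klrd1 (CD94) was at 3.15 in CCI and 3.31 in Sham and the inhibitory chain Klrc1 (NKG2A) at 3.25 in CCI and 2.98 in Sham. Klrc2 was at 2.38 in CCI and 2.67 in Sham, and Klrc3 at 2.86 in CCI and 2.93 in Sham. Klrk1, which encodes the activating receptor NKG2D, was at 3.69 in CCI and 3.82 in Sham. The rodent receptor genes Klre1, Klrh1, Klri1 and Klri2 had differences of -0.34 to 0.22. None of the 18 Klr genes passed 1.5-fold, against 2.79% of all genes in either direction. With so few genes, that absence is no result about the Klr genes.

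The Klrg genes were the only Klr genes above background. Klrg1, an inhibitory receptor that binds cadherins, was at 4.72 in CCI and 4.61 in Sham, and Klrg2 was at 5.81 in CCI and 5.97 in Sham, which lies 1.12-fold lower in CCI. Neither reached the threshold, and 218 and 145 of their 500 nearest genes differed as much in the same direction.

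Of the sugar-binding receptors of the asialoglycoprotein and DC-SIGN type, Clec4g (LSECtin) was at 4.74 in CCI and 5.10 in Sham, 1.28-fold lower in CCI. Clec10a, the macrophage galactose lectin, was at 4.46 in CCI and 4.45 in Sham, just above background on each array. The Kupffer cell receptor gene Clec4f was at 4.06 in CCI and 3.94 in Sham, and Clec4m was at 3.67 in CCI and 3.57 in Sham, all below background. None of the 4 passed 1.5-fold, against 2.79% of all genes.

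The remaining Clec genes include several that are not immune receptors. Clec16a, which encodes a protein of endosomes and mitochondrial turnover rather than a lectin receptor, was at 7.10 in CCI and 7.40 in Sham, 1.24-fold lower in CCI, as were 50 of the 500 genes nearest in level. Clec14a, a gene of vascular endothelium, was at 5.20 in CCI and 5.18 in Sham. The endothelial list had a median difference of -0.24, with 7 of 9 measured members lower, as were 9514 of all 18166 genes. Clec5a, an activating myeloid receptor that pairs with the Tyrobp product, was at 3.75 in CCI and 3.35 in Sham. The growth factor gene Clec11a, at 4.05 in CCI and 3.78 in Sham, and the cartilage gene Clec3a, at 4.12 in CCI and 3.87 in Sham, were also below background.

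Downstream of the receptors, the difference passed 1.5-fold higher in CCI for 2 of 4 adaptor genes and 2 of 6 effectors of inhibitory receptors. The same held for 1 of 24 genes of Dectin-1 signalling, against 1.64% of all genes. None of these genes was lower past 1.5-fold, against 1.14% of all genes. Tyrobp, which encodes the adaptor DAP12, was at 8.30 in CCI and 7.20 in Sham, and Fcer1g, which encodes the Fc receptor γ chain that Dectin-2 type receptors use, was at 10.05 in CCI and 9.06 in Sham. The other 2 of the 4 adaptor genes, Cd247 at 5.05 in CCI and 4.97 in Sham and Hcst, the adaptor gene of NKG2D, at 3.66 in CCI and 3.36 in Sham, did not pass 1.5-fold. Of the 6 effectors of inhibitory receptors, Ptpn6, which encodes the phosphatase SHP-1, was at 7.29 in CCI and 6.58 in Sham, a 1.64-fold difference. Dok2, the other effector counted, was at 4.57 in CCI and 3.93 in Sham, with the Sham value below background. Its difference passed 1.5-fold, but its bound, at least 1.10-fold higher in CCI, fell short of 1.5-fold. Inpp5d, the lipid phosphatase SHIP1 gene, was at 6.29 in CCI and 5.92 in Sham, a difference below 1.5-fold. The other 3 did not pass it either, Ptpn11 with a difference of 0.05, Csk with 0.07 and Dok1, below background on both arrays, at 4.02 in CCI and 3.90 in Sham.

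Of the 24 genes of Dectin-1 signalling, 12 were higher and 12 lower, with a median difference of 0.02. The gene past 1.5-fold was Vav1, an exchange factor of haematopoietic cells, at 5.53 in CCI and 4.83 in Sham, 1.62-fold higher in CCI. Pik3cd, a leukocyte lipid kinase gene, was at 5.99 in CCI and 5.47 in Sham. Syk was at 4.55 in CCI and, below background, at 4.28 in Sham, at least 1.08-fold higher in CCI. Card9, the adaptor that links Syk to NF-kB, was at 4.77 in CCI and 5.09 in Sham. Its partners Bcl10 and Malt1 differed by 0.06 and 0.04. The arrays measure transcripts and not phosphorylation of Syk or its targets.

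**Figure D4:**
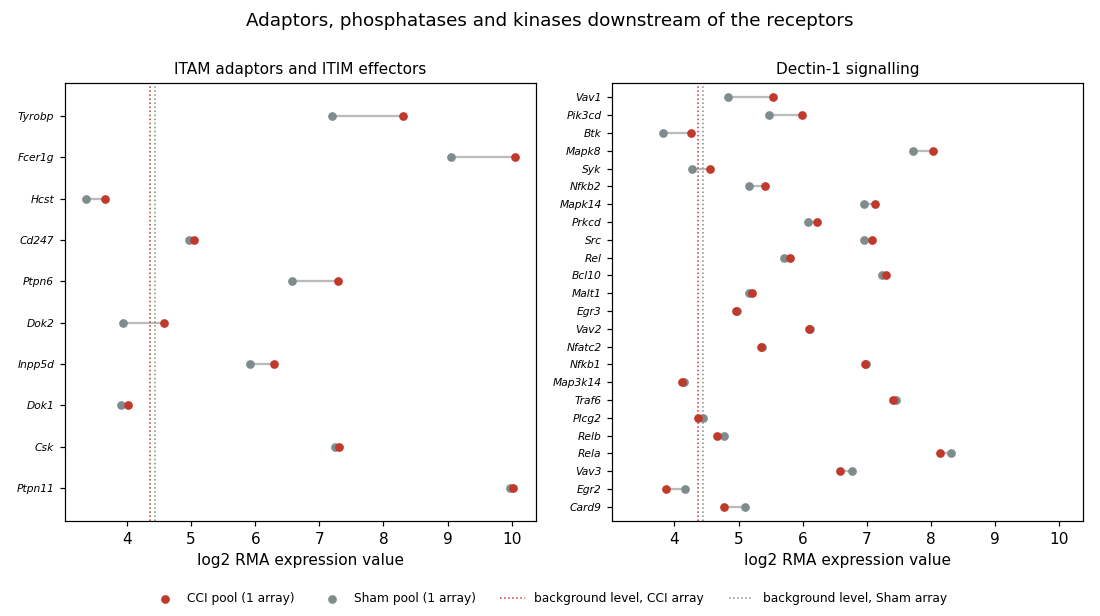
Log2 RMA values of 4 adaptor genes, 6 effectors of inhibitory receptors and 24 genes of Dectin-1 signalling, with 1 point for the CCI pool and 1 for the Sham pool and dotted lines at the background levels. Tyrobp, Fcer1g, Ptpn6 and Vav1 are past 1.5-fold, as is Dok2 with a Sham value below background.

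Of 14 measured genes for reported ligands, none was higher past 1.5-fold, against 1.64% of all genes, and 1 was lower, against 1.14%. The lower gene was Anxa1, an annexin reported as a Dectin-1 ligand, at 3.38 in CCI and 4.01 in Sham, both below background. Lgals9, the gene for galectin-9, was at 6.69 in CCI and 7.24 in Sham, 1.46-fold lower in CCI. Pdpn, the ligand of the Clec1b product, was at 8.61 in CCI and 8.48 in Sham, and Cdh2, a cadherin gene, was at 9.02 in CCI and 9.35 in Sham. Of 38 measured genes with a C-type lectin domain but other names, 2 were higher past 1.5-fold, against 1.64% of all genes. None was lower past it, against 1.14%, and the median difference was 0.06. The secreted lectin Reg3b was at 7.09 in CCI and, below background, at 3.70 in Sham, at least 6.28-fold higher in CCI. Reg3a, below background on both arrays, was at 3.53 in CCI and 2.89 in Sham. The macrophage lectin Mrc1 was at 4.84 in CCI and 5.10 in Sham, a lower value in CCI.

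Markers of microglia were higher in the same comparison. Of 21 measured, 20 were higher, and 12 were higher past 1.5-fold, against 1.64% of all genes. The median difference over the 21 was 0.71, and their summed linear value was 7212 in CCI and 4219 in Sham. In these tissue pools more microglia and more RNA per cell cannot be told apart. The highest difference among these markers was that of C1qa, 1.75, which is 3.36-fold. With background at the 95th percentile, the bound of Clec7a, at least 4.16-fold, was above the measured fold of C1qa. The bound of Clec4a3, at least 3.12-fold, was not, but a smallest fold does not place Clec4a3 below C1qa. Both bounds would be smaller at a higher background level. The measured difference of Clec4a1, 0.91, was above those of 15 of the 21. Sall1, a nuclear marker of microglia that lay above background, differed by -0.03, and Tmem119 by 0.27. The Sham values of Clec7a and Clec4a3 were below background, and the part of microglial number in these 2 differences was not tested.

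Markers of NK cells, the main carriers of Klr receptors, were mostly near background. Of 16 measured, 10 were at or below background on both arrays, among them Ncr1 at 3.80 in CCI and 3.78 in Sham, Prf1 at 3.67 in CCI and 3.62 in Sham and Nkg7 at 3.74 in CCI and 3.88 in Sham. The NK list had a median difference of 0.03. None was higher past 1.5-fold, against 1.64% of all genes, and 1 was lower, against 1.14%. The lower gene was Cd7, at 5.00 in CCI and 5.86 in Sham. The summed linear value of the NK list was 287.3 in CCI and 296.9 in Sham. Dendritic cell markers had a median difference of 0.04, and none of 10 passed 1.5-fold, against 2.79% of all genes. Among them Flt3 was at 7.21 in CCI and 7.67 in Sham. The summed linear value of the dendritic cell list was 726.7 in CCI and 790.2 in Sham. Border macrophage markers had a median of -0.24, with 8 of 9 lower, as were 9514 of all 18166 genes. None of the 9 passed 1.5-fold, against 2.79% of all genes.

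Of 13 measured markers of neutrophils and monocytes, 3 were higher past 1.5-fold, against 1.64% of all genes. Plac8 was at 7.93 in CCI and 5.76 in Sham, and Lyz2 had a difference of 0.60. Ngp, below background on both arrays, was at 3.66 in CCI and 3.00 in Sham. The summed linear value of the whole list was 994.9 in CCI and 606.8 in Sham. Lyz2 and Plac8, its brightest members in CCI, weigh most in that CCI sum. Cd14 and Csf3r, above background on both arrays, were higher in CCI by less than 1.5-fold. S100a8, S100a9 and Ccr2 were below background on both arrays. Of 12 T and B cell markers only Cd4 was higher past 1.5-fold, against 1.64% of all genes. Cd4, which rat macrophages also express, was at 9.34 in CCI and 8.06 in Sham. Cd3d, Cd3e and Cd3g were below background on both arrays. The part of infiltrating cells in the differences of Clec7a, Clec4a3 and Clec4a1 was not tested.

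**Figure D5:**
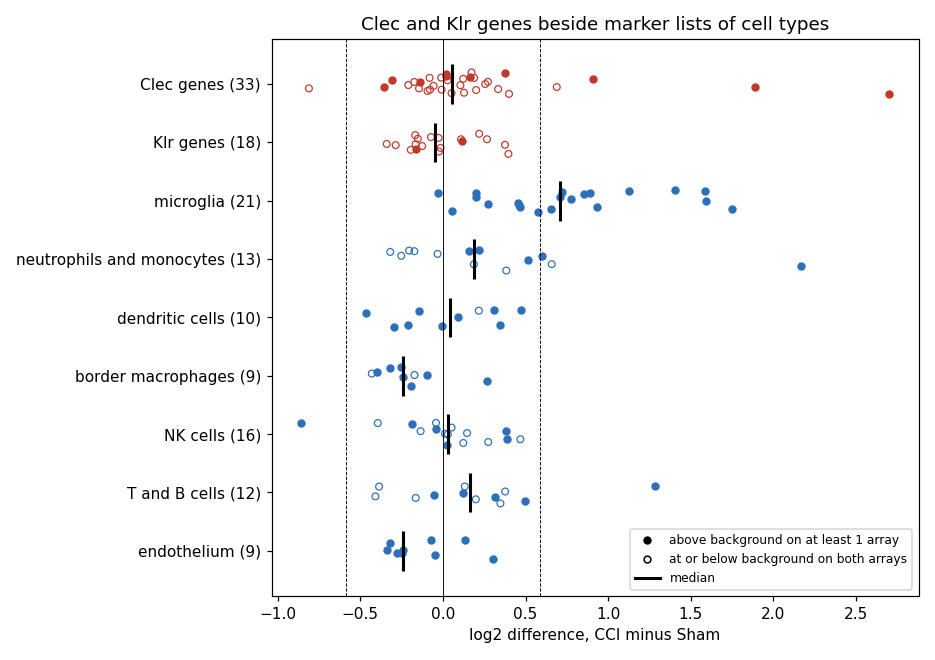
Difference in log2 value (CCI minus Sham) of each Clec gene, Klr gene and measured marker of 7 cell type lists, with filled points above background on at least 1 array, open points at or below it on both, bars at the medians and dashed lines at 1.5-fold. Clec7a is plotted at 2.70 and Clec4a3 at 1.89, both with Sham values below background, C1qa at 1.75, and the Klr genes lie around 0 together with the NK markers.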

How the data were processed

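The data were 28879 probe sets on 2 arrays, 1 for CCI and 1 for Sham. The authors deposited log2 values made by RMA in R with Bioconductor packages, a procedure that removes background, equalises the intensity distributions of the arrays and combines the probes of each set. Because it compresses dim values, small folds at low level may be too small, and a change common to most transcripts is removed. The build behind the array annotation is not given in the sources used here.

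Groups were taken from the sample titles, where Model stands for CCI. Probe sets that the platform annotation ties to 1 gene symbol were kept (18511), and those with several genes (575) or none (9793) were left out. Per gene, the probe set with the highest mean over both arrays was used, and no member had more than 1. Updating through the Entrez ID changed no member's symbol. Of the members, 51 matched RefSeq by Entrez ID, and 42 had an upstream stretch. Differences were computed with pandas (2.3.3) in Python (3.11.15), and alignments with Biopython (1.88; match 1, mismatch -1, gap opening -2, gap extension -0.5). The functions were tested on simulated data. With 1 array per group no test was run.

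Named genes were the members past 1.5-fold or above background on at least 1 array, the others by group, and of the pathway, ligand and marker lists the members past 1.5-fold and a few key members. Further genes with values (Snap25, Mbp, Cebpb, Olr1, C3ar1, Necap1, Rpl31-ps10, the Ly49 genes, Pik3cd, Bcl10, Malt1, Cd247, Lgals9, Pdpn, Cdh2, Mrc1, C1qa, Sall1, Tmem119, Ncr1, Prf1, Nkg7 and Flt3) were picked with their values in view. The members and lists were chosen with earlier results of these data known. Protein motifs were not analysed here. The alternatives were a 2-fold threshold, 2 floors on level, median centring, subtraction of a lowess trend (span 0.3, statsmodels 0.14.6), the mean over probe sets, updated symbols, and the 90th and 99th percentile as background.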

Additional observations from a re-analysis of the deposited data

How the results depend on the processing

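With median centring or subtraction of the lowess trend, 4 members were higher in CCI than in Sham past 1.5-fold and 1 was lower, as reported. Past 2-fold, 2 were higher and 0 lower. Among the 4 members at or above the median level of all genes, 0 were higher and 0 lower. Over all genes at any level the shares were 1.64% and 1.14%. Clec7a, Clec4a3 and Clec4a1 have mean levels below that median. Among the 12 members above background on at least 1 array, 3 were higher, against 1.69% of all genes that passed this filter. None was lower, against 1.13% of those genes. Clec2d and Clec2dl1 were left out by the filter. Clec7a and Clec4a3 passed that filter through the CCI value alone, so it is no check on them. The median difference over members stayed within 0.1 of its reported value in the settings where it was recomputed, the floors on level, median centring, the lowess trend, the mean over probe sets and updated symbols. No member had more than 1 probe set and no symbol changed, so the last pair could not move any value. With the 99th percentile of the receptor genes as background, 7 members lay above it, and with the 90th, 18. The bounds on fold were computed at the 95th percentile alone, and a higher background level would make them smaller. Of 28 differences of 14 named members after centring or trend subtraction, 28 moved by less than the spread of genes of like level, by at most 0.06, and 1 changed sign, that of Clec10a after the trend was subtracted. No replicate could be left out. No paired analysis was possible because each group had 1 array. Dim values limit the Klr genes most, as 16 of 18 lay at or below background.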
